A study of Mus musculus with 10 samples.

Results

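The Reg genes encode small secreted C-type lectins. Reg1 and Reg2 proteins (Reg1 is also known as pancreatic stone protein or lithostathine) are made in large amounts by pancreatic acinar cells, the exocrine cells that secrete digestive enzymes, and Reg3b (pancreatitis-associated protein) and Reg3g are known for their induction in pancreatitis and for antibacterial activity in the gut. Reg genes have been studied in islets as possible growth factors for β cells and as genes induced by injury and by cytokines that signal through gp130 and STAT3. Islets prepared by collagenase digestion carry acinar cells and acinar RNA with them, so Reg mRNA in an islet preparation can come from endocrine or from exocrine cells.

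The 6 genes described here, Reg1, Reg2, Reg3a, Reg3b, Reg3d and Reg3g, were chosen by gene symbol from a table of 47340 genes, and each symbol stood in 1 row. All 6 passed the filter of a mean of at least 1 FPKM (fragments per kilobase of transcript, scaled to the depth of the library) in either group, which left 13065 genes for testing. The study deleted Fitm2, which encodes FIT2, an endoplasmic reticulum protein needed for lipid droplet formation, in mouse β cells. It compared islets of 5 floxed control libraries (FL) with 5 βFIT2KO libraries (KO). FL mice had both Fitm2 alleles floxed and no Cre, and were entered as wild type in the labels. KO mice had the same floxed alleles with Cre under the rat insulin promoter, from the line B6.Cg-Tg(Ins2-cre)25Mgn/J. Both groups were male littermates aged 12 weeks, and their islets recovered overnight in culture before poly(A) RNA was sequenced in single reads of 75 bases; no islets with Cre alone were analysed here. Each library came from the islets of a different mouse.

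The deleted gene followed the labels. Fitm2 (chr2:163466379-163472629) had 16.9, 30.5, 16.5, 37.1 and 15.5 FPKM in FL 1 to FL 5 and 4.56, 4.30, 7.75, 9.13 and 9.0 FPKM in KO 1 to KO 5. The groups did not overlap, and the difference was -1.58 on the log2(FPKM + 1) scale (adjusted p = 0.00228, limma with Benjamini-Hochberg adjustment over all genes tested). The tissue label was met in part by its markers. Ins1, Ins2, Iapp, Gcg and Chga were listed at 0 in all 10 libraries, and Mafa, Pdx1, Slc2a2 and Ucn3, other genes of β cells, were detected in all of them. A gene that every islet uses can therefore be listed at 0 in this table.

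The 6 genes lie together on chromosome 6, at chr6:78370657-78468872 (GRCm38, GENCODE M21), and no other annotated gene lies wholly within these 98.2 kb. Reg3b occupies 78370657 to 78373466, Reg3a 78380709 to 78383827, Reg2 78395623 to 78408106 and Reg1 78422711 to 78428667, all on the plus strand. Reg3d, at 78375874 to 78378865, and Reg3g, at 78466269 to 78468872, are read from the minus strand. Coding sequences were most alike within each branch of the family. Reg1 and Reg2 were identical at 78.8% of aligned positions, pairs of Reg3 genes at 66.0% to 76.0%, and pairs of Reg1 or Reg2 with a Reg3 gene at 55.0% to 59.9%. No stretch of 75 bases, the read length, occurred in the annotated transcripts of 2 members. For Reg2, 40 of 874 such stretches (4.58%) also occurred in transcripts of genes outside the family, and for the other 5 members none did. Exact reads of this length thus tell the members apart.

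The sequences before the start sites are shown for Reg1 and for Reg2, Reg3a and Reg3b, which are among the 5 genes that varied together, as described below. Those of Reg3d and Reg3g, the others of the 5, were searched for the same letters but are not printed. Each line gives the 250 bases before the RefSeq start site (GRCm38.p6), on the gene's own strand, and capitals mark a TATA box (TATAAA), an E-box (CACCTG) or a TC-box (TGGGAA), on either strand. The E-box and TC-box are the parts of the element bound by PTF1, the main activator of acinar enzyme genes. The Reg1 window is chr6:78425733-78425982 and the Reg2 window chr6:78404905-78405154, both inside the longer GENCODE gene bounds. The Reg3a window is chr6:78380459-78380708 and the Reg3b window chr6:78370635-78370884.
Reg1: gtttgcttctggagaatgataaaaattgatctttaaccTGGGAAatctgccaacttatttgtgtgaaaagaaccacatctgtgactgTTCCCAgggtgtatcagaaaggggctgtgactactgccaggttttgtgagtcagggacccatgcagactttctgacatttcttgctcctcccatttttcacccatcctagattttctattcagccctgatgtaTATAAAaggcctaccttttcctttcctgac
Reg2: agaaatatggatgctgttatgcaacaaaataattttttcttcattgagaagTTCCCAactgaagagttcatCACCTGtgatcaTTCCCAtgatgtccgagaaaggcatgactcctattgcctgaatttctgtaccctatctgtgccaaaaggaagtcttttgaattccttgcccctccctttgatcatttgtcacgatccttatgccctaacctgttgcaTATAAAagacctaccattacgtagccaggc
Reg3a: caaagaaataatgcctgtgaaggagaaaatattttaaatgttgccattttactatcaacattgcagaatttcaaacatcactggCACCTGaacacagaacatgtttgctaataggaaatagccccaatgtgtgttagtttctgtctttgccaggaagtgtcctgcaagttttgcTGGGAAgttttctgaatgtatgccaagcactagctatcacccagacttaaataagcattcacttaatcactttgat
Reg3b: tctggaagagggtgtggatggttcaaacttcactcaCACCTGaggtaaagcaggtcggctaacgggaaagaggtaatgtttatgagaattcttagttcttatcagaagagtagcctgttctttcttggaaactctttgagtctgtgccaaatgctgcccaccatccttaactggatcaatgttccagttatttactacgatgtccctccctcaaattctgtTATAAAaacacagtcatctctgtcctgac
TATA boxes at -27 to -30 from the start site stood in Reg1, Reg2, Reg3b and Reg3g. Over windows of 300 bases (the 250 shown and the next 50), 4 of the 6 members held a TATA box, against 13.6% of 32851 RefSeq mouse promoters. An E-box stood in 4 members (Reg2, Reg3a, Reg3b and Reg3d) against 20.2% of all promoters, and a TC-box in 5, all but Reg3b, against 25.6%. Of 25 acinar enzyme promoters, 9 held the TATA box, 13 the E-box and 12 the TC-box. The letters TTCNNNGAA, the core of a STAT site, stood in 2 members, Reg3b and Reg3d (where they overlap a TC-box), and in 2 of the 25 acinar enzymes, against 8.30% of all promoters. These are matches of letters and not evidence of binding.

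Reg1 and Reg2 were the most abundant members. Reg1 had 771, 482, 203, 208 and 195 FPKM in FL 1 to FL 5 and 259, 121, 118, 296 and 886 FPKM in KO 1 to KO 5. FL 1 and KO 5 were the highest of their groups, KO 2 and KO 3 were below every FL library, and the groups overlapped. Reg2 had 1090, 237, 104, 306 and 109 FPKM in FL and 239, 27.2, 115, 152 and 840 FPKM in KO. Here too FL 1 and KO 5 stood far above the other libraries of their groups, and KO 2 was the lowest of all 10. The highest library exceeded the lowest 7.5-fold for Reg1 and 40.1-fold for Reg2.

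The Reg3 genes were all highest in FL 1 and lowest in KO 2, as Reg2 was. Reg3b, the most abundant of them, had 622, 127, 59.6, 95.3 and 36.6 FPKM in FL and 100, 12.5, 51.3, 89.0 and 336 FPKM in KO. Reg3g had 101, 15.3, 10.5, 19.5 and 6.36 FPKM in FL and 17.8, 1.80, 7.04, 11.9 and 56.6 FPKM in KO. For both genes KO 5 was the second highest library. Reg3d, also called INGAP-related protein, had 71.0, 7.65, 6.11, 20.2 and 6.33 FPKM in FL and 9.80, 1.09, 5.45, 7.71 and 36.6 FPKM in KO. Reg3a had 135, 6.32, 4.24, 17.1 and 3.04 FPKM in FL and 7.47, 0.908, 4.62, 6.68 and 48.3 FPKM in KO. Reg3a thus had the widest range, 148.9-fold between FL 1 and KO 2. The FL and KO libraries overlapped for all 6 members, where 19.1% of all genes tested had groups that did not overlap. Reg4, a relative encoded elsewhere, was listed at 0 in 8 libraries and at 0.0216 (FL 5) and 0.101 FPKM (KO 5) in the others.

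**Figure D1:**
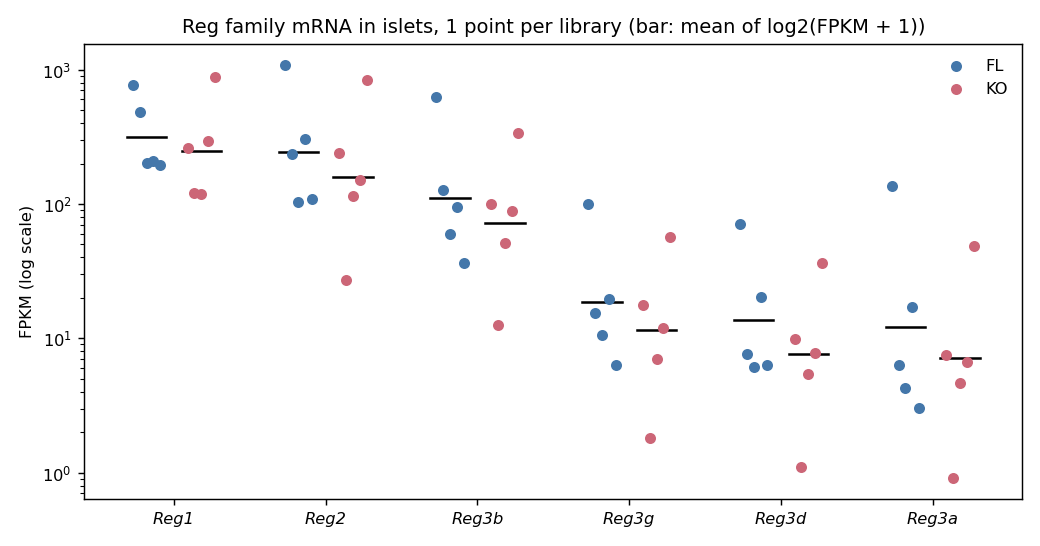
Level of each Reg gene in FPKM (log axis) in the 5 FL (blue) and 5 KO (red) libraries, 1 point per library, with the group mean of log2(FPKM + 1) turned back to FPKM as a bar. The groups overlap for every gene, and the spread within a group is wider than the distance between the bars.

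The comparison of KO with FL asks whether loss of FIT2 from β cells altered Reg mRNA in the islets. None of the 6 genes passed the test. On the log2(FPKM + 1) scale the difference, KO minus FL, was -0.33 for Reg1 (SE 0.57, 95% interval -1.59 to 0.93), -0.64 for Reg2 (SE 0.86, -2.54 to 1.26) and -0.60 for Reg3b (SE 0.88, -2.53 to 1.33). It was -0.64 for Reg3g (SE 0.83, -2.47 to 1.18), -0.77 for Reg3d (SE 0.80, -2.53 to 0.98) and -0.70 for Reg3a (SE 1.02, -2.95 to 1.56). Each estimate was below 0, and each interval held changes of more than a log2 unit downward as well as no change. Adjusted p ranged from 0.515 (Reg3d) to 0.712 (Reg1) by limma, and exact two-sided permutation tests over the 252 splits of 5 against 5 libraries gave p = 0.444 to 0.619. The count was 0 of 6 by limma, with 0 at an unadjusted p under 0.05, in a comparison in which 25.5% of all genes tested were called. The median difference over the 6 genes was -0.64, beside -0.056 over all genes. The smallest p such a permutation can give is 0.00794.

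The estimates rested on few libraries. Without FL 1 they were -0.01 for Reg1, -0.10 for Reg2, 0.15 for Reg3a, 0.02 for Reg3b, -0.20 for Reg3d and -0.05 for Reg3g. Without KO 2 that of Reg3b was 0.01, and without KO 5 the 6 estimates lay between -0.79 and -1.35 with adjusted p of 0.238 to 0.358. With both FL 1 and KO 5 left out, a choice made after their values were seen, the estimates were -0.46 to -0.73 and no member was called.

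**Figure D2:**
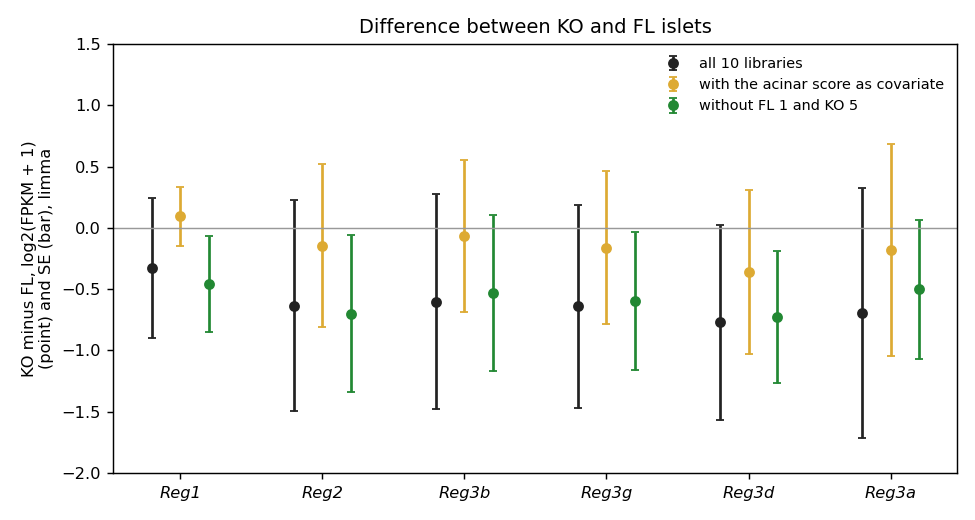
Difference between KO and FL on the log2(FPKM + 1) scale (point) with its standard error (bar) for each Reg gene, from limma with all 10 libraries (black), with the acinar score as a covariate (yellow) and without FL 1 and KO 5 (green). All black points lie between -0.33 and -0.77, and the yellow point of Reg1 lies at 0.09.

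The spread between libraries of the same group was large for the family. The standard deviation within groups was 1.05 log2 units for Reg1, 1.47 for Reg3d, 1.52 for Reg3g, 1.59 for Reg2, 1.61 for Reg3b and 1.88 for Reg3a. Over all genes tested its median was 0.125, and 67 genes exceeded Reg3a. Acinar digestive enzymes had a median of 0.924 (range 0.377 to 1.02), so that Reg1 was just above the widest of them and the other members lay well above it.

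Acinar enzymes were abundant in all 10 libraries. Of 30 enzymes listed, 23 passed the filter, and 4 pancreatic amylase genes, Amy2a1 to Amy2a4, were listed at 0 throughout. The summed level of the 23 ran from 5378 to 14422 FPKM in FL and from 3593 to 26337 FPKM in KO, which was 0.573% to 4.11% of all FPKM in a library, a total to which the hormone genes listed at 0 add nothing, so that the share may be overstated. Chymotrypsinogen B (Ctrb1) had 4948, 5023, 3625, 2076 and 2505 FPKM in FL and 2343, 1321, 1316, 3750 and 9540 FPKM in KO. Elastase 1 (Cela1) had 2076, 2053, 1354, 589 and 916 FPKM in FL and 773, 414, 549, 1483 and 3343 FPKM in KO. KO 5 held the most enzyme mRNA and KO 2 or KO 3 the least. None of the 23 enzymes was called in KO against FL by limma (0 at an unadjusted p under 0.05), all 23 estimates were below 0, and their median was -0.37. Without KO 5 the median was -0.78, with 9 of 23 enzymes at an unadjusted p under 0.05, near the 4597 of 13050 over all genes, and 0 called, and without KO 2 it was -0.11. The other abundant enzymes in the list, Prss2 (trypsin), Cela2a, Try5, Cela3b and Cpa1 (carboxypeptidase A1), had differences of -0.23, -0.49, -0.29, -0.45 and -0.32. The acinar score, the mean log2(FPKM + 1) of the 23 enzymes, was 6.72 ± 0.56 (SD, n = 5) in FL and 6.35 ± 1.05 (SD, n = 5) in KO, and the difference of -0.37 was within the spread (exact permutation p = 0.492). It rested on few libraries, being -0.76 without KO 5 (exact permutation p = 0.111), -0.57 without FL 4, -0.23 without FL 1, -0.15 without KO 3 and -0.13 without KO 2.

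Reg1 went with the acinar score from library to library. Over the 10 libraries, as deviations from the group means, Pearson's r was 0.92 (exact permutation p = 0.00542, adjusted over the 6 members) and Spearman's rho 0.93 (adjusted exact p = 0.0117). Without KO 5 and KO 2, the 2 libraries farthest from the median score, r was 0.83, and its exact permutation p over the 6 members no longer passed (adjusted p = 0.15). The correlations of the other members were lower, and the difference from that of Reg1 was not tested. Pearson's r was 0.76 for Reg3b, 0.72 for Reg3g, 0.71 for Reg2, 0.64 for Reg3d and 0.63 for Reg3a (adjusted exact permutation p = 0.0579, 0.0593, 0.0643, 0.0667 and 0.0643). Spearman's rho was 0.78, 0.67, 0.66, 0.55 and 0.58, with adjusted exact permutation p of 0.0410 for Reg3b, 0.0899 for Reg3g and Reg2, and 0.111 for Reg3d and Reg3a. Without KO 5 and KO 2 the r of these 5 genes fell to between 0.23 (Reg3d) and 0.54 (Reg3b), so that these relations rested largely on those libraries.

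**Figure D3:**
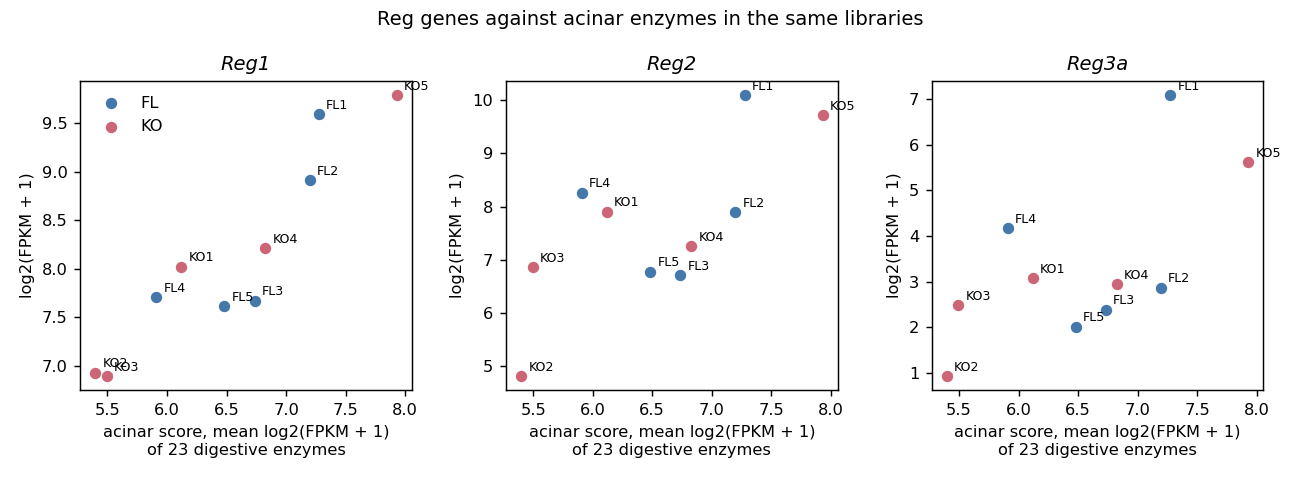
Log2(FPKM + 1) of Reg1, Reg2 and Reg3a against the acinar score (mean log2(FPKM + 1) of 23 digestive enzymes) in the same libraries, FL in blue and KO in red. Reg1 follows the score (r = 0.92), whereas FL 1 and FL 2 have nearly the same score, with 135 and 6.32 FPKM of Reg3a.

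The acinar enzymes and the Reg genes did not keep a fixed ratio. FL 1 and FL 2 had nearly equal acinar sums of 14422 and 14365 FPKM, and Reg1 was 771 and 482 FPKM in them, yet Reg2 was 1090 and 237, Reg3b 622 and 127, and Reg3a 135 and 6.32 FPKM. FL 4 had the lowest acinar sum of the FL group, 5378 FPKM, and the second highest Reg2 in that group (306 FPKM). Reg1 in FL 4 (208 FPKM) was also slightly above FL 3 and FL 5 (203 and 195 FPKM), whose acinar sums were higher. As a share of the acinar sum, Reg1 lay between 2.02% and 5.35% in all 10 libraries, Reg2 between 0.756% and 7.56%, and Reg3a between 0.0253% and 0.937%. Cela1, an acinar enzyme within the sum, lay between 10.9% and 14.5%. No acinar gene outside the sum was measured as a share of it. Dmbt1, from a list of further acinar genes outside the sum, had 46.0 FPKM in FL 4. It had 40.7 and 23.4 FPKM in FL 3 and FL 5, and 111 and 89.9 FPKM in FL 1 and FL 2. A level in FL 4 above those of FL 3 and FL 5 was thus not particular to Reg genes.

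**Figure D4:**
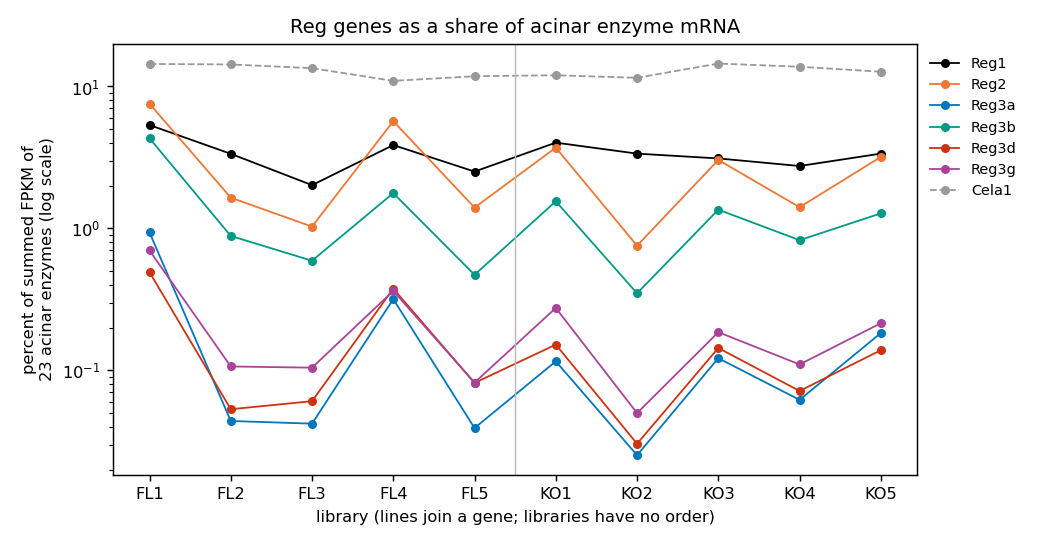
Each Reg gene, and Cela1 for comparison, as a percentage of the summed FPKM of 23 acinar enzymes in the same library (log axis). Reg2 and the Reg3 genes are high in FL 1 and FL 4 and low in KO 2 together. Cela1, itself a part of the sum, stays between 10.9% and 14.5%, and no acinar gene outside the sum is drawn.

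Measured relative to the acinar score, the members again did not pass a test between KO and FL. The differences of log2 level minus acinar score were 0.04 for Reg1, -0.24 for Reg3b, -0.27 for Reg2, -0.28 for Reg3g, -0.33 for Reg3a and -0.40 for Reg3d (exact permutation p = 0.540 to 0.905). With the score as a covariate in limma, none of the 6 was called, where 31.5% of all genes were. The estimate for Reg1 turned to 0.09 (95% interval -0.45 to 0.64) and its spread within groups fell from 1.05 to 0.44 log2 units. For the other 5 the estimates were -0.07 to -0.36, and their spread fell too, from 1.59 to 1.20 for Reg2, 1.61 to 1.12 for Reg3b, 1.52 to 1.12 for Reg3g, 1.47 to 1.21 for Reg3d and 1.88 to 1.56 for Reg3a. Because the libraries are bulk RNA, more cells of a kind and more RNA per cell cannot be told apart in any of these values.

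Reg2 and the 4 Reg3 genes varied together. Among their 10 pairs, Pearson's r of the deviations from the group means was 0.95 to 0.99 over 10 libraries, and the largest adjusted exact permutation p was 0.00189 (15 pairs of members tested). Spearman's rho was 0.89 to 0.99. Without the 2 libraries farthest from the median of the gene that comes first by name in each pair, r was 0.83 to 0.97. Reg1 with the other 5 gave r of 0.81 to 0.90 and rho of 0.70 to 0.87 (largest adjusted exact permutation p = 0.0079 for r). Without the 2 libraries farthest from the median of Reg1, FL 1 and KO 5, r was 0.40 to 0.75. The libraries left out differed between pairs, so these ranges without 2 libraries are not like for like. The acinar score was then regressed out of each gene, an alternative added after the data were seen. The 10 pairs of Reg2 and Reg3 genes kept r of 0.92 to 0.98 (largest adjusted permutation p = 0.00917). The 5 pairs with Reg1 had r of 0.74 to 0.80, and those with Reg3a and Reg3d no longer passed (adjusted permutation p = 0.0620 and 0.0868). By Spearman's rho (0.61 to 0.76) none of these 5 passed (adjusted permutation p = 0.0761 to 0.184). The 10 other pairs did (rho 0.84 to 0.99, largest adjusted permutation p = 0.0335). What is left after such a regression is not freely exchangeable between libraries, so these permutation p-values are approximate. These relations are between whole islet preparations and not between cells.

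Reg1 and the other members had different nearest genes. Ranked by Pearson's r of log2(FPKM + 1) over the 10 libraries among all genes tested, those nearest to Reg1 were Sdc1 (syndecan 1, r = 0.98), Erp27 (0.98), Tead2 (0.98), Igsf23 (0.97) and Spink1 (a trypsin inhibitor of acinar cells, 0.97). No other member was among the 20 nearest to Reg1. Genes of the acinar lists took 8 of those 20 places, 6 of the 20 nearest to Reg2 and to Reg3b, 4 for Reg3g and 2 for Reg3a and for Reg3d, where members took 5. For each of Reg2, Reg3a, Reg3b, Reg3d and Reg3g, the 4 nearest genes were the other 4 of this set, and Reg1 ranked between 10 and 19. The fifth gene was Shmt1, a serine hydroxymethyltransferase, for Reg2 (r = 0.93). For Reg3b it was Dmbt1 (0.93), a secreted scavenger receptor protein and, like Spink1, a gene of the acinar lists. Hsd17b13, which encodes a lipid droplet protein, was the fifth gene for Reg3a (0.93), Reg3d (0.94) and Reg3g (0.95). Hsd17b13 had 5.66 FPKM on average in FL and 4.89 in KO.

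FPKM is per length, so the members' levels can be ordered within a library. The mean log2(FPKM + 1) over 10 libraries was 8.14 for Reg1, 7.63 for Reg2, 6.50 for Reg3b, 3.97 for Reg3g, 3.49 for Reg3d and 3.36 for Reg3a. Neighbours were compared within each library by an exact sign-flip permutation test, chosen after the values were seen and adjusted over 5 pairs. Reg2 exceeded Reg3b in 10 of 10 libraries (mean log2 difference 1.12 ± 0.32 SD, adjusted exact p = 0.00488), and Reg3b exceeded Reg3g in 10 of 10 (2.53 ± 0.24 SD, adjusted exact p = 0.00488). Reg3g exceeded Reg3d in 9 of 10 libraries, all but FL 4 (adjusted exact p = 0.00977). Reg1 and Reg2 did not differ beyond their spread, since Reg1 was higher in 8 of 10 and Reg2 in FL 1 and FL 4 (adjusted exact p = 0.0952). Nor did Reg3d and Reg3a, where Reg3a was higher in FL 1 and KO 5 (adjusted exact p = 0.410). The ratio of Reg2 to Reg1 was 1.41 in FL 1 and 1.47 in FL 4, and 0.225 (KO 2) to 0.976 (KO 3) in the other 8 libraries.

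Genes known to act around the Reg proteins were examined as lists. Extl3, which encodes a proposed receptor for Reg proteins, had 12.4 to 13.9 FPKM in FL and 14.1 to 15.7 FPKM in KO and was called higher in KO (log2 difference 0.14, adjusted p = 0.0452, limma), but the call was lost under 17 of 24 alternative settings. Of 17 genes tested in the gp130 and STAT3 pathway, which can induce Reg genes, 5 were called, near the 25.5% of all genes. All 5 were lower in KO. Over all genes tested, 2150 of 3333 calls were lower, but 1530 of 3144 after median-ratio rescaling and 1455 of 3130 after upper-quartile rescaling, under each of which 4 genes of the list were called, all lower. The 5 genes were Ctf1 (cardiotrophin 1, -0.62), Il11ra1 (-0.34), Il6ra (-0.33), Lifr (-0.31) and Ptpn2, a phosphatase that restrains this signalling (-0.17). The call of Ptpn2 was lost under 18 of 24 alternative settings and that of Ctf1 under 4, and those of the other 3 held under all 24. Some settings also gave calls higher in KO. There was 1 such gene without the filter on low FPKM, with sample weights or with the acinar covariate, and 2 without KO 3. The list's median was -0.092, beside -0.056 over all genes, and -0.034 beside -0.0038 after median-ratio rescaling. Stat3 itself was at 101 to 122 FPKM in FL and 95.6 to 142 in KO, the shared receptor Il6st (gp130) at 106 to 130 and 85.6 to 133, and Socs3, a STAT3 target, at 8.50 to 25.1 and 8.34 to 18. None of these 3 was called. The cytokine Il6 had 0.159 to 1.29 FPKM in FL and 0.383 to 4.42 in KO, with a difference of 0.97 (adjusted p = 0.0601). Il22, a further inducer, was listed at 0 in all libraries but FL 4, and its receptor Il22ra1 was at most 0.288 FPKM. In the IL-17 pathway 0 of 6 genes tested were called by limma. At an unadjusted p under 0.05 there were 4, beside 4928 of 13065 over all genes, and 2 after median-ratio or upper-quartile rescaling and 0 without FL 4. Quantile normalization, limma without the trend, and leaving out FL 2 or KO 2 each gave 1 gene of this list called, lower in KO.

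Markers of other cells were followed beside the Reg genes. Of 10 further acinar genes (granule proteins and regulators), 0 were called by limma (0 at an unadjusted p under 0.05), and their median was -0.38. Of 10 duct markers tested, 3 were called, near the 25.5% of all genes. Prom1 (-0.60) and Krt7 (-0.34) were lower in KO, Cftr was higher (1.59), and Krt19 was highest in KO 5 (66.6 FPKM), as the acinar enzymes were. Cftr averaged 0.037 FPKM in FL and 2.13 in KO, so it passed the filter through KO alone. Its difference depended on the pseudocount, being 4.02 with 0.1 and 5.60 with 0.01. The summed level of the 10 duct markers was 1277 to 1594 FPKM in FL and 1232 to 1738 in KO. Its largest parts were the keratins Krt7 (mean 451 FPKM in FL and 356 in KO) and Krt18 (333 and 374). Of 15 duct markers listed, those below the filter included Sox9, at means of 0.48 FPKM in FL and 0.70 in KO. Of 9 leukocyte markers tested, 4 were called, beside 25.5% of all genes, and all 4 were higher in KO (Lyz2 0.90, Cd68 0.68, C1qc 0.51, C1qb 0.43). The summed level of the 9 was 142 to 168 FPKM in FL and 202 to 242 in KO. Of 9 endothelial and stellate markers, 8 were called, beside 25.5% of all genes, and all 8 were higher in KO (Col3a1 0.87, Pdgfrb 0.48, Col1a2 0.48, Col1a1 0.46 among them). The sums of the 9 were 129 to 142 FPKM in FL and 158 to 207 in KO. The count of genes called was 4 without KO 1, and 5 without FL 4 or without KO 5. The calls of Col1a1, Plvap and Rgs5 were lost under 12, 10 and 10 of the 24 settings. Acute-phase genes gave 2 of 8 called, again near 25.5%, namely C3 (1.09) and Icam1 (0.71), both higher. Islet endocrine markers gave 6 of 13 called, all lower in KO, beside 25.5% of all genes, of whose 3333 calls 2150 were lower. Mafa (-1.21), Slc2a2 (-0.70), Ucn3 (-0.60) and Pdx1 (-0.47) were the furthest. The calls of these 4 held under all 24 settings, and those of Sst and Irx1, the other 2, were each lost under 12. The count was 4 under each rescaling of the libraries, and under median-ratio rescaling 1530 of 3144 calls over all genes were lower. The 1 gene tested from intestinal sites of Reg expression was not called. The part of these markers in the Reg values was not tested.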

How the data were processed

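The authors sequenced stranded poly(A) libraries and deposited 1 table of FPKM values for 10 islet libraries. Per the labels, the deposited values came from STAR 2.5.2a and Cuffnorm 2.2.1 on mm10 (GRCm38); Cuffnorm had scaled libraries to each other, so true depth is unknown. Low values, taken as approximate multiples of 1 read, put depths at 1.41 to 2.43 times that of FL 1 in the other 9 libraries, and Reg3a at about 28 reads (KO 2) to 2251 reads (FL 1). No pair of libraries was identical.

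Genes whose group mean reached 1 FPKM in either group were tested on log2(FPKM + 1) with limma 3.58.1 (R 4.3.3, trended eBayes, adjusted p at most 0.05). A fold change on this scale understates that of low genes. Single values used exact permutation tests, enumerated in Python 3.11.15 with numpy 2.4.6. Their ranks and adjusted p-values came from scipy 1.17.1. Members and lists were chosen with earlier results of these data known. The text names the 6 members, Fitm2, Ctrb1, Cela1 and the 5 other most abundant acinar enzymes, up to 4 called genes of largest change in each other list (Ptpn2, the fifth of its list, was added after its value was seen), a fixed set of pathway genes, and the 5 genes nearest each member. Plvap, Rgs5, Sst and Irx1, also beyond the first 4 of their lists, are named where their calls were lost under other settings. Positions and transcripts are from GENCODE M21 and promoters from RefSeq (GRCm38.p6), where all 6 members were found. P-values of KO against FL set the difference against the spread between libraries of the same group. Those of correlations and of the order of members were computed over the same libraries.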

Additional observations from a re-analysis of the deposited data

Results flagged for a closer look

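In groups of 5 libraries, a value was marked where its gap to the next library took more than 0.71 of the group's range (Dixon's test), which chance gives in about 1 of 20 groups of independent, normally distributed values. Of 92 groups (46 genes in FL and KO), 17 were marked on the FPKM scale. Reg genes made up 10 of them, and since these genes varied together, the 10 come from 2 libraries. On the log2(FPKM + 1) scale, tried after the data were seen, 0 of the 12 Reg groups were marked (gaps of 0.342 to 0.610 of the range), and 6 groups in all. FL 1 was marked high for Reg2 (1090 FPKM), Reg3a (135), Reg3b (622), Reg3d (71.0) and Reg3g (101). KO 5 was marked high for Reg1 (886 FPKM), Reg2 (840), Reg3a (48.3), Reg3b (336) and Reg3d (36.6). The acinar enzyme Prss2 (3444 FPKM), the duct keratin Krt19 (66.6 FPKM) and the macrophage gene C1qc (15.9 FPKM) were also marked high in KO 5. No acinar enzyme examined was marked in FL 1. Lyz2, a macrophage gene, was marked high in FL 4 (35.2 FPKM). Genes listed at 0 elsewhere in their group made up the rest, namely Reg4 in FL 5 (0.0216 FPKM) and KO 5 (0.101 FPKM) and Il22 in FL 4 (0.0666 FPKM).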

How the results depend on the processing

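No member was called under any of 24 alternatives (adjusted p 0.238 to 0.995, limma), which covered pseudocounts, filters, rescaling, limma options, the acinar covariate and libraries left out. Sample weights moved the members to between -0.15 (Reg2, Reg3b) and -0.35 (Reg3d), and calls over all genes to 4273. With the acinar score as covariate Reg1 reversed to 0.094, while calls over all genes went from 25.5% to 31.5%. Of the gp130 and STAT3 genes 8 were then called, 7 lower and 1 higher, against 5, all lower. Leaving out 1 library at a time gave -0.79 to -0.01 for Reg1, -1.24 to -0.01 for Reg2, -1.35 to 0.15 for Reg3a, -1.15 to 0.018 for Reg3b, -1.30 to -0.20 for Reg3d and -1.19 to -0.05 for Reg3g, and 3 to 7 gp130 and STAT3 genes called (3 without FL 4). Relative to the acinar score it gave -0.12 to 0.22 (Reg1), -0.58 to 0.13 (Reg2), -0.69 to 0.38 (Reg3a), -0.57 to 0.24 (Reg3b), -0.71 to 0.029 (Reg3d) and -0.57 to 0.18 (Reg3g). The r of Reg1 with the score was 0.83 without 2 libraries. The causes were not tested. Same-numbered libraries did not deviate together (r -0.102 to 0.00305), and KO libraries did not correlate best with their own number. With the replicate block 2368 genes were called, against 3333, with 3 gp130 and STAT3 genes and 5 endothelial and stellate markers (8 without the block). Reg3a in KO 2 rests on about 28 reads, an approximate figure.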
